A study of Mus musculus with 15 samples.

Results

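The inhibitory receptors of exhausted T cells were followed through every library of the series, over 8 genes: Pdcd1, Havcr2, Lag3, Tigit, Ctla4, Cd244, Cd160 and Btla. They were chosen by name from the 21788 gene symbols in the series, and all 8 were listed in all 15 libraries. T cells that meet their antigen for long periods, as in tumours, keep several of these receptors on their surface at once and lose effector function step by step, a state called exhaustion. The receptors bind ligands, many of them on neighbouring cells, and can damp signalling from the T cell receptor or from CD28. Antibodies against several of these receptors are used or tested in cancer therapy. Early exhausted cells keep the transcription factor TCF-1 and can still divide, and late ones carry Tim-3, the product of Havcr2.

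The cells were CD8+ T cells from E.G7 tumours, a mouse lymphoma line that makes the model antigen ovalbumin (OVA). Female C57BL/6 mice, inoculated under the skin with 1000000 tumour cells at 6 to 8 weeks of age, were used on day 21, at 9 to 11 weeks. A bulk pair held OVA-specific cells from wild-type mice and from mice labelled as knockouts (KO) of B7S1, an inhibitory B7-family ligand encoded by Vtcn1, with 6 mice per group. From wild-type or KO mice, 3 populations of PD-1+ CD8+ cells were sorted: B7S1R_SP carried the B7S1 receptor without Tim-3, TIM-3_SP had Tim-3 without that receptor, and DN was negative for the pair. Every population has 3 libraries, wild type 1, wild type 2 and one labelled KO. A further 4 libraries, 1 each and all from mice labelled wild type, were titled Control, anti_B7S1, anti_PD1 and combo. The labels give their sort, doses and schedule nowhere, and their treatment field reads none. PD-1 protein was therefore part of every gate of the sorted populations, and Tim-3 parted TIM-3_SP from the other two, so Havcr2 is described below and not tested. Nothing says that libraries of a group came from separate mice, so p-values measure the spread between these libraries, which may be technical.

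The libraries differed in ways that bear on receptor levels. Values are RPKM in the bulk pair and FPKM elsewhere, both per kilobase of transcript and scaled to the reads of the library, and total reads per library are not given in the sources used here. Vtcn1 was not lower in the libraries labelled KO. It stood at 0.0687 RPKM in bulk wild type and 9.46 RPKM in the bulk library labelled KO, and was listed at 0 FPKM in the 3 wild-type libraries numbered 2 against 0.16, 2.5 and 1.02 FPKM in B7S1R_SP, TIM-3_SP and DN labelled KO. "Labelled KO" is used throughout for that reason. All 10 listed T cell identity genes reached 1 or more in every library, and their sum was 2382 to 4732 FPKM in B7S1R_SP, 6887 to 9160 in TIM-3_SP and 3719 to 7865 in DN. Summed myeloid and dendritic cell markers ran the other way, at 523 to 6771 FPKM in B7S1R_SP against 112 to 173 in TIM-3_SP and 103 to 564 in DN. The B7S1R_SP library labelled KO stood apart, with Lyz2, the macrophage lysozyme gene, at 2440 FPKM. MHC class II genes were among the high markers in the B7S1R_SP wild-type library numbered 1. On the log2(FPKM + 1) scale, B7S1R_SP exceeded DN in Lyz2 by 6.35, 2.83 and 10.49 (wild type 1, wild type 2, labelled KO). For Arg1 these differences were 0.87, 6.67 and 7.76. Csf1r, Fcgr3, Mrc1 and Apoe were also above DN in all 3 comparisons, while Cd14, Cd68, H2-Eb1, Cd74 and Xcr1 were below it in some. The CD4 and regulatory T cell markers summed to 4.52 to 101 FPKM in B7S1R_SP, 23.7 to 101 in TIM-3_SP and 9.46 to 43.6 in DN. In the same order the B cell list summed to 1.30 to 5.77, 0 to 6.66 and 1.39 to 32.9 FPKM. Natural killer (NK) cell markers summed to 434 to 2164, 379 to 892 and 411 to 418 FPKM. In B7S1R_SP labelled KO the NK markers included Fcer1g at 1456 FPKM and Tyrobp at 696 FPKM, while Klre1 was at 8.91 FPKM. Csf1r and Adgre1, defining markers of macrophages, were at 22.25 and 0.05 FPKM in B7S1R_SP wild type 1, at 1.82 and 0.09 FPKM in wild type 2 and at 4.27 and 16.0 FPKM in the library labelled KO. The part of such markers in the receptor differences was not tested. In RNA pooled from many cells, fewer cells of a type and less RNA per cell cannot be told apart.

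Tigit, whose product binds CD155 on other cells and competes with the activating receptor CD226, was the most abundant of the 8 receptor transcripts in all 15 libraries. It made up 82.3% and 82.1% of their summed RPKM in the wild-type and KO-labelled bulk libraries, and 39.9% to 73.9% of the summed FPKM in the other 13. Tigit also has the shortest transcript of the 8, at 919 bases against up to 3760 for Cd244. In the sorted libraries the genes in the lowest 20% of transcript length lay 2.23 to 3.74 log2 units above those in the highest 20% in median level, and the part of transcript length in the order of the receptors was not tested. Over the 13 FPKM libraries the median was 969 for Tigit, 185 for Ctla4, 159 for Lag3, 137 for Pdcd1, 40.7 for Cd160, 9.34 for Havcr2, 5.88 for Cd244 and 1.64 for Btla. Ctla4, Lag3 and Pdcd1 are neighbours in that order whose ranges overlapped almost whole: 6.06 to 710.0 FPKM, 1.27 to 763.9 FPKM and 3.17 to 734.5 FPKM. Btla, the receptor for HVEM, was under 1 in 7 libraries, Havcr2 in 5, Cd244 in 4 and Cd160 in 1, and the other 4 genes reached 1 everywhere. The summed level of all 8 spanned 56.4 FPKM in B7S1R_SP labelled KO to 3482 FPKM in anti_B7S1.

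**Figure D1:**
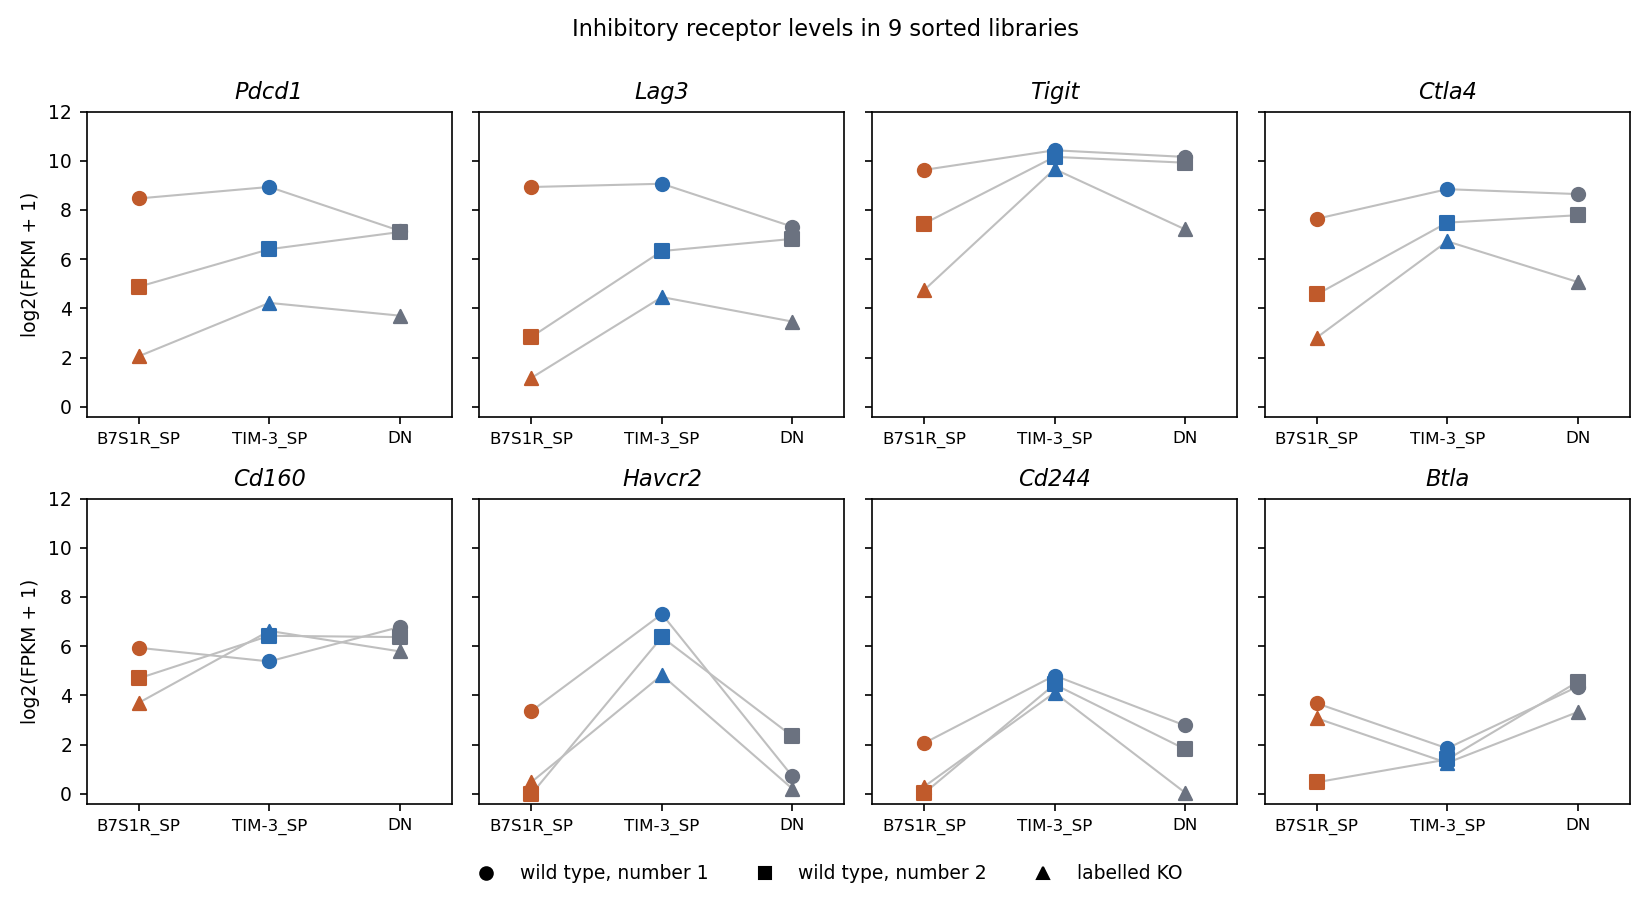
Levels of the 8 receptor genes as log2(FPKM + 1) in the 9 sorted libraries, 1 panel a gene. Points are single libraries, colours are populations, shapes and grey lines join the 3 libraries of a set. Havcr2 and Cd244 peak in TIM-3_SP in each set, Btla is lower in TIM-3_SP than in DN in each set, and B7S1R_SP is lowest of the 3 populations for all 8 genes in the set numbered 2.

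The genes lie on 5 chromosomes of the mouse build mm10, with positions here from GENCODE M21. Pdcd1 lies on the minus strand at chr1:94038305-94052553, Ctla4 on the plus strand at chr1:60887000-60915832 and Cd244, annotated as Cd244a, on the plus strand at chr1:171559193-171609746. Tigit lies on the minus strand at chr16:43648867-43664146 and Btla on the plus strand at chr16:45224315-45257670. Havcr2 is on the plus strand at chr11:46454935-46481255, Lag3 on the minus strand at chr6:124904361-124911705 and Cd160 on the minus strand at chr3:96798763-96829351. Promoter windows from RefSeq matched 7 of the 8 by symbol, all but Lag3. The 250 bases before the start site (GRCm38.p6, the build behind mm10) are shown for 5 genes whose windows hold no annotated exon. They are Pdcd1, which varied with Lag3 in the sort, and the members of 2 further pairs that varied together, Tigit with Ctla4 and Havcr2 with Cd244. They read 5′ to 3′ on the gene's own strand, from chr1:94052554-94052803 (minus), chr16:43664185-43664434 (minus), chr1:60908775-60909024 (plus), chr11:46454681-46454930 (plus) and chr1:171558943-171559192 (plus). Capitals mark matches on either strand to the core of NFAT sites (GGAAA or TTTCC), to the AP-1 site (TGANTCA) and to the core of RUNX sites (TGTGGT or ACCACA), factors known for their part in T cell activation and exhaustion.
Pdcd1: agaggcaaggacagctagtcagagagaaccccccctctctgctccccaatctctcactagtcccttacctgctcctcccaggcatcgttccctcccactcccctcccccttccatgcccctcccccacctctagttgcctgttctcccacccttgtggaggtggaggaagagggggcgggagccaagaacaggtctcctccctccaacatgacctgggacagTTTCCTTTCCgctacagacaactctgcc
Tigit: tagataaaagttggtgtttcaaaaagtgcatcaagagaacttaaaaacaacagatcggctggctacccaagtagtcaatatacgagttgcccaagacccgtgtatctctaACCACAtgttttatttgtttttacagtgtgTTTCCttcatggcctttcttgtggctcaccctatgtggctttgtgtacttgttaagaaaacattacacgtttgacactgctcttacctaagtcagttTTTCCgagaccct
Ctla4: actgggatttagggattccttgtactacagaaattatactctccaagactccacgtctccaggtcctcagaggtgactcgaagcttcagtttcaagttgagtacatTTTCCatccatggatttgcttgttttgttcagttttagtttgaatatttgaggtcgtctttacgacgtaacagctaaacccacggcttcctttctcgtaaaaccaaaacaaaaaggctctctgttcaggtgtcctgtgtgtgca
Havcr2: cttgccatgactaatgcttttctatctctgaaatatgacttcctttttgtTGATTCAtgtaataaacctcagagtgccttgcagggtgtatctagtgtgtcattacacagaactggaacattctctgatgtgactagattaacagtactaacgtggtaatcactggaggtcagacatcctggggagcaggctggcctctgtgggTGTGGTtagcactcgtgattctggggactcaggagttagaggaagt
Cd244: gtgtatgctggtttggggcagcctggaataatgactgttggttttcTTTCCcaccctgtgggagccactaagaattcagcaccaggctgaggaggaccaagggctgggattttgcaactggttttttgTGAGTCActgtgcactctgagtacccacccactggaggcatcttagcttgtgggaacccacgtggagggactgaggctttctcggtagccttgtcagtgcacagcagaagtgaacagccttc

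The Pdcd1 window held 2 NFAT cores side by side, starting 28 and 23 bases before the start site. Tigit also held 2, at 110 and 13 bases before it, with a RUNX core at 140 bases. Ctla4 held 1 NFAT core at 144 bases. Havcr2 held an AP-1 match at 200 bases and a RUNX core at 46 bases, and Cd244 an NFAT core at 204 bases and an AP-1 match at 122 bases. Of 32851 mouse promoter windows of this length, 55.6% hold the NFAT core, 14.1% the RUNX core and 6.75% the AP-1 site. AP-1 letters thus stood in both windows of the Havcr2 and Cd244 pair, and the pair of Tigit and Ctla4 shared the NFAT core, a match that most windows hold.

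Havcr2 followed the gate. It stood at 157, 81.8 and 27.4 FPKM in TIM-3_SP (wild type 1, wild type 2 and labelled KO, the order used from here on). The corresponding values were 0.65, 4.09 and 0.16 FPKM in DN and 9.34, 0 and 0.40 FPKM in B7S1R_SP. TIM-3_SP was far above both other populations in every set, as its sort on Tim-3 fixes.

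Cd244 was the receptor gene that moved most with that gate. It encodes 2B4, a SLAM-family receptor for CD48 that activates or inhibits depending on its adaptor proteins. It stood at 27.05, 20.9 and 16.3 FPKM in TIM-3_SP, at 5.88, 2.54 and 0.04 FPKM in DN and at 3.18, 0.02 and 0.23 FPKM in B7S1R_SP. The lowest TIM-3_SP library thus lay above the highest library of either other population. Differences were fitted with limma on log2(FPKM + 1), with the set of libraries as a block, and p-values were adjusted over all genes tested by the Benjamini-Hochberg method. B7S1R_SP was below TIM-3_SP in Cd244 by −3.66 ± 0.54 (SE, 3 sets, adjusted p = 0.0381 in limma). It was the 1 of 7 tested receptor genes to pass 0.05 in that comparison, where 0.413% of 10178 genes passed, 0.167% as lower. Of those 42 genes 25 were higher and 17 lower, a split that became 59 and 61 with libraries scaled to a common median and 18 and 30 with centring by transcript length. Groups did not overlap, with B7S1R_SP lower, for 4.44% of genes.

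That call rests on the setting. Cd244 lost its call in limma without the block (−3.66, adjusted p = 0.0958), over wild-type libraries alone (−3.58, adjusted p = 0.201) and with no filter on low values (adjusted p = 0.117). With a pseudocount of 0.1 the difference was larger, −5.38, and did not pass either (adjusted p = 0.177). Leaving out single libraries gave −4.11 to −3.21 with adjusted p in limma of 0.0460 to 0.177, and the call held only without DN labelled KO and was lost without any of the other 8. Without the B7S1R_SP library labelled KO, not the only one with myeloid markers, the difference was −3.87 (adjusted p = 0.110 in limma). It passed when libraries were scaled to a common median (−3.86, adjusted p = 0.0180 in limma). It also passed when they were scaled to their 4 CD3 genes (−2.23, adjusted p = 0.0149), a scaling that put the median gene at 1.61 and under which 4580 of the 10178 genes passed. Against DN, TIM-3_SP was higher in Cd244 by 2.90 ± 0.54 (adjusted p = 0.187 in limma). It was higher in 3 of 3 sets with no overlap, as for 2.25% of genes, but did not pass, where 6 of 10178 genes did (0.059%, all higher) and 922 (9.06%) had an unadjusted p under 0.05. Cd244 and Tigit were the tested receptors higher in 3 of 3 sets there, as were 8.61% of genes.

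Btla was lower in TIM-3_SP than in DN in each set, where Cd244 was higher. Its product, like CD160, binds HVEM, and it is known from naive and early activated T cells. Btla stood at 2.61, 1.64 and 1.40 FPKM in TIM-3_SP, at 19.5, 22.45 and 9.03 FPKM in DN and at 11.83, 0.39 and 7.42 FPKM in B7S1R_SP. All 3 DN libraries lay above all 3 TIM-3_SP libraries, while B7S1R_SP overlapped TIM-3_SP through its wild-type library 2. TIM-3_SP was lower than DN by −2.57 ± 0.72 (adjusted p = 0.379 in limma), without overlap, as for 7.97% of genes. B7S1R_SP differed from TIM-3_SP by 0.90 ± 0.72 (adjusted p = 0.616) and was at 2.33 (adjusted p = 0.0243 in limma) with libraries scaled to the CD3 genes, where the median gene was at 1.61.

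Tigit and Ctla4 were low in B7S1R_SP. Tigit stood at 790.2, 173 and 25.9 FPKM in B7S1R_SP, at 1374, 1140.2 and 809 FPKM in TIM-3_SP and at 1139, 969 and 148 FPKM in DN. Every B7S1R_SP value was below every TIM-3_SP value, as for 4.44% of genes, and the DN values overlapped both. Ctla4, the receptor for CD80 and CD86, stood at 199, 22.75 and 6.06 FPKM in B7S1R_SP, at 459, 178 and 105 FPKM in TIM-3_SP and at 399.6, 219.9 and 32.75 FPKM in DN. B7S1R_SP was the lowest population in each set for both genes, although Ctla4 in B7S1R_SP wild type 1 exceeded 2 TIM-3_SP libraries. B7S1R_SP differed from TIM-3_SP by −2.81 ± 0.71 for Tigit (adjusted p = 0.135) and −2.68 ± 0.60 for Ctla4 (adjusted p = 0.108 in limma). From DN it differed by −1.82 ± 0.71 and −2.16 ± 0.60 (adjusted p = 0.742 and 0.695). None of these passed, and Ctla4 against TIM-3_SP passed with libraries scaled to a common median (−2.77, adjusted p = 0.0467 in limma). TIM-3_SP and DN differed by 0.98 ± 0.71 for Tigit and 0.52 ± 0.60 for Ctla4, within the spread between sets.

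Pdcd1 and Lag3 varied more between sets than between populations. Pdcd1, which encodes PD-1, stood at 353, 28.5 and 3.17 FPKM in B7S1R_SP, at 489, 83.8 and 17.7 FPKM in TIM-3_SP and at 142, 137 and 12.1 FPKM in DN. Lag3, whose product binds MHC class II, stood at 488, 6.20 and 1.27 FPKM in B7S1R_SP, at 535, 79.6 and 21.05 FPKM in TIM-3_SP and at 159, 112 and 10.1 FPKM in DN. In wild-type set 1 both genes were lowest in DN, and in the other 2 sets both were lowest in B7S1R_SP. B7S1R_SP was below TIM-3_SP in 3 of 3 sets for each, by −1.39 ± 0.67 for Pdcd1 and −2.30 ± 0.90 for Lag3 (adjusted p = 0.378 and 0.287 in limma). With libraries scaled to the CD3 genes the Pdcd1 difference was 0.044 and that of Lag3 −0.87, against 1.61 for the median gene.

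Cd160, a glycosylphosphatidylinositol-anchored receptor for HVEM, had the narrowest range of the 8 over the 9 sorted libraries on the log2 scale. It stood at 60.25, 24.9 and 12.0 FPKM in B7S1R_SP, at 40.7, 84.9 and 97.5 FPKM in TIM-3_SP and at 109, 81.8 and 54.4 FPKM in DN. B7S1R_SP was below DN in each set (−1.54 ± 0.63, adjusted p = 0.742 in limma), and the groups overlapped. TIM-3_SP and DN changed places between sets (−0.17 ± 0.63).

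As a group, 6 of the 7 tested receptors were lower in B7S1R_SP than in TIM-3_SP, as were 40.4% of all genes, with a median difference of −2.30 against 0.18 over all genes. In 3 of 3 sets 5 of the 7 were lower, and 13.9% of genes. An unadjusted p under 0.05 was reached by 14.9% of genes. All 7 were lower in B7S1R_SP than in DN (median −1.55), where 49.4% of all genes were. Tigit, Ctla4, Cd160 and Btla were lower there in 3 of 3 sets, as were 14.0% of genes. No gene passed between B7S1R_SP and DN in limma, with 678 of 10178 (6.66%) at an unadjusted p under 0.05. The CD3 genes moved with this pattern. The mean log2 level of the 4 was 7.09 to 8.97 in B7S1R_SP, 9.17 to 9.625 in TIM-3_SP and 7.995 to 9.60 in DN. With libraries scaled to them, which put the median gene at 1.61 between B7S1R_SP and TIM-3_SP and at 1.01 between B7S1R_SP and DN, 4 of 7 and 5 of 7 receptors were lower, with medians of −0.87 and −0.55. Without the B7S1R_SP library labelled KO, Tigit, Ctla4 and Lag3 differed from TIM-3_SP by −2.12, −2.34 and −1.87, and without B7S1R_SP wild type 1 by −3.63, −3.33 and −3.63.

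**Figure D2:**
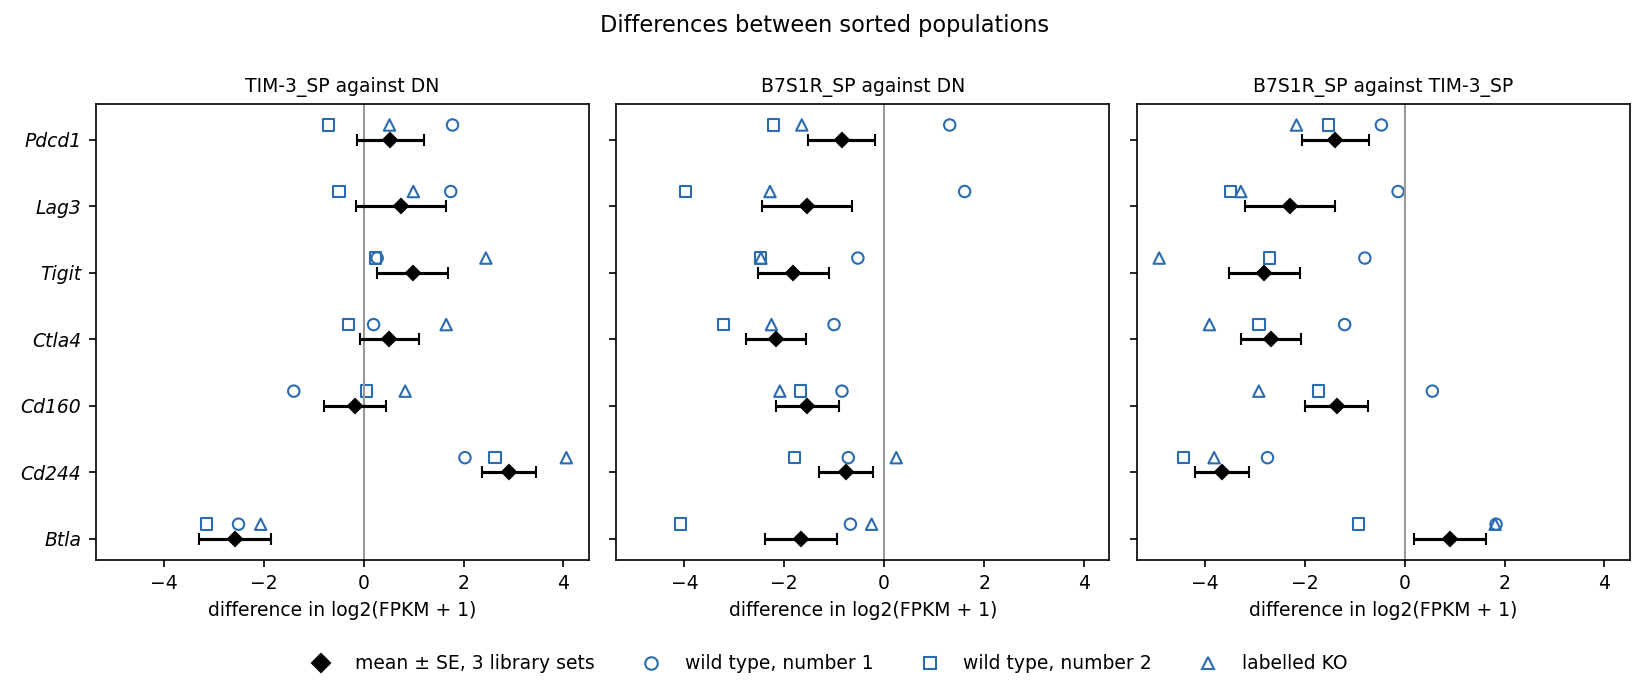
Differences in log2(FPKM + 1) between sorted populations for 7 receptor genes. Black diamonds are limma means ± SE over 3 library sets and open symbols are the single sets. Cd244 lies at 2.90 between TIM-3_SP and DN and at −3.66 between B7S1R_SP and TIM-3_SP, and all 7 means lie below 0 between B7S1R_SP and DN.

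Genes around the receptors were read from lists of ligands and partner receptors, signalling molecules, other inhibitory receptors and transcription factors. Of 17 tested transcription factors of exhaustion, 2 passed between B7S1R_SP and TIM-3_SP, where 42 of 10178 genes did (0.413%). Tcf7, which encodes TCF-1, rose by 3.24 (adjusted p = 0.0327 in limma) and Id2, a regulator of effector differentiation, fell by 3.14 (adjusted p = 0.0373). Tcf7 stood at 150.2, 94.1 and 106 FPKM in B7S1R_SP and at 12.1, 7.36 and 15.7 FPKM in TIM-3_SP, with DN at 168, 102 and 75.6 FPKM. Both calls were lost without the library block, over wild-type libraries alone, with a pseudocount of 0.1 and with no filter. With single libraries left out Tcf7 passed only without DN wild type 1 or DN labelled KO (3.04 to 3.62, adjusted p 0.0460 to 0.166 in limma), and Id2 only without TIM-3_SP wild type 1 or DN wild type 1 (−3.52 to −2.78, adjusted p 0.0444 to 0.172 in limma). Tcf7 was high in both populations sorted without Tim-3, the opposite of Cd244. The difference between TIM-3_SP and DN was −3.17 for Tcf7 (adjusted p = 0.0868) and −3.65 for Id3 (adjusted p = 0.195), and neither passed.

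Between B7S1R_SP and TIM-3_SP, 40.4% of all genes were lower in B7S1R_SP, with a median of 0.18. Of 14 ligands and partner receptors, 12 were lower in B7S1R_SP than in TIM-3_SP (median −0.49) and none passed. They included Cd48, the ligand of 2B4 (−1.65, adjusted p = 0.143), Cd86, a ligand of CTLA-4 (−3.20, adjusted p = 0.108), and Cd226 (−1.91, adjusted p = 0.239). Cd48 stood at 210, 191 and 223 FPKM in B7S1R_SP and at 479, 766 and 761 FPKM in TIM-3_SP, 2 ranges that did not meet. Ranges did not meet, with B7S1R_SP lower, for 4.44% of all genes. Of 21 signalling genes, 11 were lower and 10 higher (median −0.05), and none passed. The largest were Cblb, a ubiquitin ligase that restrains T cell activation (−2.41), Ubash3b (−2.40) and Sh2d2a (−2.40). Of 16 other inhibitory receptors, 13 were lower (median −0.66) and none passed. Klrc1, the NKG2A gene, was at −3.45 (adjusted p = 0.0826), Entpd1, the CD39 gene, at −3.13 (adjusted p = 0.110) and Cd200r1 at −3.08 (adjusted p = 0.122). Between TIM-3_SP and DN none of the 4 lists had a gene past 0.05. Entpd1 (2.52) and Nt5e (−2.73), whose products act in turn to make adenosine from ATP, lay on opposite sides there.

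Libraries labelled KO were compared with wild-type libraries numbered 2, whose files list the same genes, within each population. A single set thus stood against a single set, and the errors measure the spread between populations, not between sets of a genotype. Pdcd1 was 3.17, 17.7 and 12.1 FPKM in the B7S1R_SP, TIM-3_SP and DN libraries labelled KO, against 28.5, 83.8 and 137 FPKM in wild type. All 3 libraries labelled KO lay below all 3 wild-type ones, as for 9.99% of genes. The difference was −2.80 ± 0.40 (adjusted p = 0.236 in limma with the population as a covariate). From wild type 1 to wild type 2, Pdcd1 went from 353 to 28.5 FPKM in B7S1R_SP, 489 to 83.8 in TIM-3_SP and 142 to 137 in DN. A difference by genotype therefore cannot be told apart from a difference between sets. Lag3 differed by −2.30 ± 0.46, Tigit by −1.97 ± 0.54 and Ctla4 by −1.74 ± 0.47, each with an adjusted p of 0.367. These 4 genes were lower in 3 of 3 populations, as were 23.5% of 10097 genes. Cd160 (−0.46 ± 0.40), Cd244 (−0.61 ± 0.49) and Btla (0.41 ± 0.73) had differences near their errors, and Btla lay at 2.60 in B7S1R_SP and −1.23 in DN. No receptor passed, where 4 genes did (0.0396%, all lower) and 1255 (12.4%) had an unadjusted p under 0.05.

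In all, 6 of 7 receptors were lower, as were 59.5% of genes, with a median of −1.74 against −0.16 over all genes. CD3 genes moved with it, from 7.815, 9.625 and 9.291 in wild type 2 to 7.09, 9.17 and 7.995 in the libraries labelled KO. With libraries scaled to them, which put the median gene at 0.67, Pdcd1 differed by −1.97 (adjusted p = 0.0921) and Lag3 by −1.47, while Cd160 and Cd244 turned to 0.37 and 0.21. Without the B7S1R_SP library labelled KO, Pdcd1 and Lag3 differed by −2.79 and −2.61 (adjusted p = 0.474 for both in limma). Whether the genotype difference varied between populations could not be decided by a test. Each population had 1 library labelled KO, and the spread came from the wild-type pairs, which cross 2 sets of files. In the comparison of libraries labelled KO with wild type, none of the neighbouring lists had a gene past 0.05. The largest differences in each list shared by all 3 populations included Bhlhe40 (−2.25), Tnfrsf14, the HVEM gene (−2.0), Sh2d2a (−2.11) and Klrc1 (−1.95).

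The bulk pair gave another picture, with 1 library per group and no replicate check. Pdcd1 was 77.8 RPKM in wild type and 120.6 RPKM in the library labelled KO, and Havcr2 73.8 and 105.9 RPKM. Cd244 was 15.3 and 27.9 RPKM, and Tigit 1284 and 1547 RPKM. Lag3 (60.0 and 43.9 RPKM), Ctla4 (30.3 and 21.5 RPKM), Cd160 (17.4 and 17.1 RPKM) and Btla (0.836 and 0.359 RPKM) were lower in the library labelled KO, Cd160 by very little. The largest ratio among receptors at 5 RPKM or more was 1.82 for Cd244. None of the 6 counted passed a 2-fold difference with at least 5 RPKM in the higher library, where 10.7% of 6075 genes did as higher and 12.1% as lower. Pdcd1, at −2.80 in the sort, was at 0.63 in the bulk pair. Outside the 8, the inhibitory receptor genes with the largest bulk differences were Klrg1 (14.2 against 0.001 RPKM) and Cd200r1 (6.29 against 63.2 RPKM, wild type first). The 0.001 RPKM of Klrg1 is the lowest value listed and is given only as listed. It was held by 3169 genes in the library labelled KO and 1511 in wild type. Of the ligands Cd274, the PD-L1 gene, passed, at 13.7 and 5.16 RPKM.

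**Figure D3:**
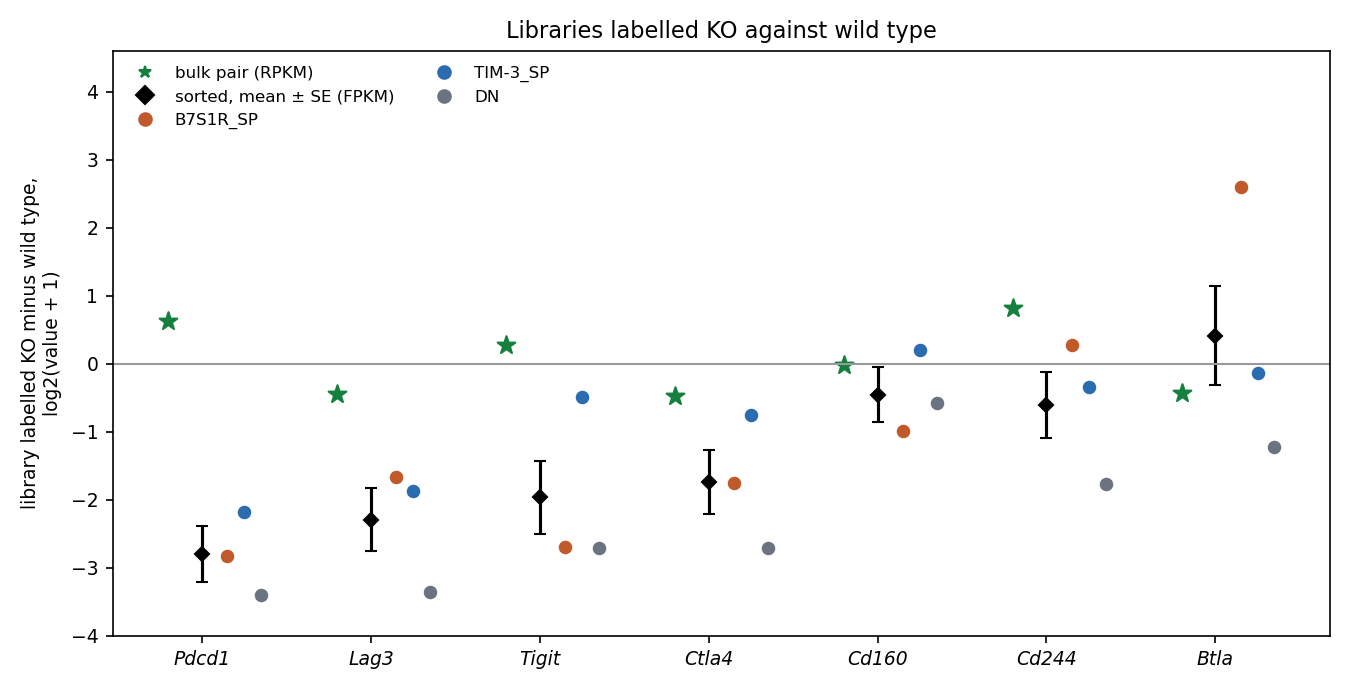
Library labelled KO minus wild type on the log2(value + 1) scale for 7 receptor genes. Stars are the bulk pair, coloured points the sorted populations and black diamonds their limma mean ± SE over 3 populations. Pdcd1, Lag3, Tigit and Ctla4 lie below 0 in each sorted population, while the bulk values lie between −0.47 and 0.82.

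How the receptors varied together was read over the 9 sorted libraries, after the mean of each set was taken off log2(FPKM + 1). Correlations across 9 libraries that share sets and populations are a description. Tigit and Ctla4 were the closest pair (Pearson r = 0.971, Spearman rho = 0.983), followed by Pdcd1 and Lag3 (r = 0.964, rho = 0.867) and Havcr2 and Cd244 (r = 0.908, rho = 0.733). Without the 2 libraries farthest from the median of the first gene, r was 0.981, 0.940 and 0.850. The Tim-3 gate fixed Havcr2, so its r with Cd244 largely restates how Cd244 differed between TIM-3_SP and the other populations. Over the 21 pairs without Havcr2 the median was 0.711, and 0.444 without the 2 farthest libraries. All 15 pairs among Pdcd1, Lag3, Tigit, Ctla4, Cd160 and Cd244 were over 0.5. Over all genes, between 87.5% and 99.97% had a lower r with the first gene of the pair, the lowest share being that of Cd244 with Cd160. With 2 libraries left out 8 of these 15 were, and the lowest was Pdcd1 with Cd160 at −0.132. That relation rested on the 2 libraries left out, B7S1R_SP wild type 2 and B7S1R_SP labelled KO. Btla had r of −0.461 to 0.217 with the other 7.

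Scaling to the CD3 genes parted the pairs. The median of the 21 fell to 0.213, and r stayed at 0.891 for Tigit and Ctla4, 0.896 for Havcr2 and Cd244 and 0.773 for Pdcd1 and Lag3. Tigit with Pdcd1 went from 0.793 to 0.195 and Cd244 with Cd160 from 0.521 to −0.506. Btla with Cd244 went from −0.381 to −0.791. Leaving out single libraries moved the median of the unscaled r over 0.577 to 0.801, the lowest without B7S1R_SP wild type 2.

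**Figure D4:**
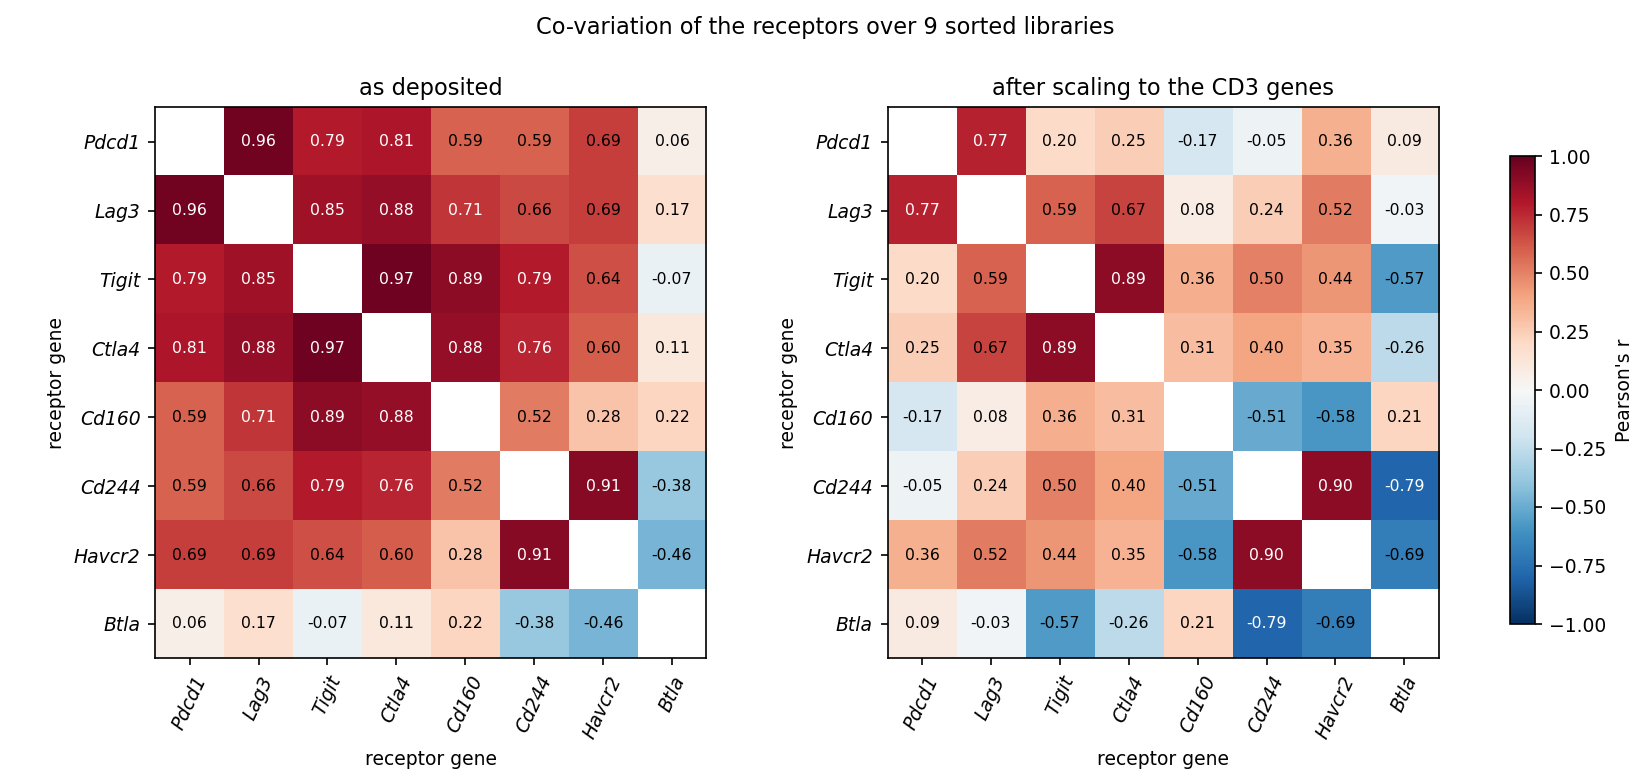
Pearson's r between receptor genes over 9 sorted libraries, of log2(FPKM + 1) with the mean of each library set taken off, as deposited (left) and after scaling to the 4 CD3 genes (right). Tigit with Ctla4 (0.971 and 0.891), Havcr2 with Cd244 (0.908 and 0.896) and Pdcd1 with Lag3 (0.964 and 0.773) are high in both panels. Btla has r of −0.461 to 0.217 on the left. On the right it is at −0.791 with Cd244, −0.692 with Havcr2 and −0.566 with Tigit, and between −0.263 and 0.213 with the rest.

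For each receptor the 2 most similar genes were named, by the same r among 6160 genes averaging 5 FPKM or more. Each receptor had many close matches, with 36 genes over an r of 0.9 for Havcr2 and up to 149 for Ctla4, so the 2 named are the first of many. Tigit was closest to Cd3e, a chain of the T cell receptor complex (r = 0.993), and to Tnfrsf9, the costimulatory receptor 4-1BB (0.986). Ctla4 was closest to Fasl, the death receptor ligand (0.990), and Crem, a cAMP-responsive transcription factor (0.983). Havcr2 was closest to Ccl3, a chemokine gene (0.974), and Gzmc, a granzyme gene (0.967). Ccl3 stood at 1083, 3428 and 3981 FPKM in TIM-3_SP and at 30.2 to 199 FPKM in the other 6 libraries. Matches to Havcr2, which the Tim-3 gate fixed, largely restate the contrast of TIM-3_SP with the other populations. Lag3 paired with Lcp1, which bundles actin (0.975), and both Lag3 and Pdcd1 with Abhd6, a lipid hydrolase gene (0.972 each). Pdcd1 was also close to Dock8 (0.970), Cd244 to Wdr95 (0.985) and the integrin gene Itgav (0.983), Cd160 to the immediate early gene Ier2 (0.984) and Crbn (0.981), and Btla to Cyhr1 (0.979) and Hnrnpdl (0.974). Cyhr1, highest in DN in each set as Btla was, reached 31.25 FPKM in DN wild type 2 against 12.3 FPKM in TIM-3_SP wild type 2.

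The antibody libraries have 1 library each, so differences have no replicate check. Many genes were near absent in single libraries: of 3165 genes at 10 FPKM or more in the other 3 libraries, 15.1% were under 0.5 FPKM in Control, and the share was 7.20% in anti_B7S1, 1.10% in anti_PD1 and 6.04% in combo. In the sorted libraries the share was at most 1.82%, but it is not the same measure. It asks for 10 FPKM in all other libraries of a set of files, and those sets hold 3 or 6 libraries, not 4. Havcr2 and Cd244 were of that kind in Control and Cd160 in combo, and a gene at or near 0 is reported only as listed.

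Pdcd1, the gene of anti_PD1's target, stood at 117 FPKM in Control, 509.95 in anti_B7S1, 292 in anti_PD1 and 734.5 in combo. Lag3 stood at 334, 367, 624 and 764 FPKM in the same order, so both genes were highest in combo. Tigit stood at 852, 1677, 1129.7 and 1266 FPKM, lowest in Control and less than 2-fold apart. Ctla4 stood at 83.6, 710.04, 487 and 185 FPKM. It was 8.5 times as high in anti_B7S1 and 5.82 times as high in anti_PD1 as in Control, and 2.21 times as high in combo. Havcr2 was listed at 0.19 FPKM in Control and at 174, 213 and 198 FPKM in the other 3. Cd244 was listed at 0 in Control and at 11.3, 23.0 and 28.4 FPKM. Cd160 was 20.2, 32.0 and 31.2 FPKM and was listed at 0.02 FPKM in combo. Btla stayed between 0 and 0.19 FPKM.

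The comparisons with Control share that library, so their shared direction is no separate evidence. Values near absence were left out of the receptor counts that follow, by asking for 0.5 FPKM or more in both libraries beside 5 FPKM in the higher one, and Havcr2 was left aside. Against Control, Pdcd1 and Ctla4 were over 2-fold higher in anti_PD1, 2 of 5 counted, where 20.4% of 4977 genes were higher and 28.6% lower. The same 2 of 5 were higher in anti_B7S1 (21.6% of genes higher, 25.5% lower). In combo Pdcd1, Ctla4 and Lag3 were higher, 3 of 4 (22.8% higher, 24.9% lower). Combo against anti_PD1 had Pdcd1 higher (2.51 times) and Ctla4 lower (22.7% of genes higher, 18.2% lower). Combo against anti_B7S1 had Lag3 and Cd244 higher and Ctla4 lower (23.9% higher, 22.6% lower). Without that minimum the shares over all genes were 43.8% higher and 23.8% lower in anti_PD1, 37.9% and 29.0% in anti_B7S1 and 40.1% and 28.0% in combo, each against Control. They were 23.6% and 32.7% for combo against anti_PD1 and 33.3% and 30.8% for combo against anti_B7S1. With 4 or 5 genes counted, nothing is read from these shares. The mean log2 level of the CD3 genes was 9.02 in combo and 8.62 to 8.69 in the other 3. Relative to them, some calls of combo fell under 2-fold, a log2 difference of 1. These were Lag3 (0.71) and Cd244 (0.92) against anti_B7S1, Pdcd1 (0.93) against anti_PD1, and Lag3 (0.86) and Ctla4 (0.81) against Control. Pdcd1 and Ctla4 stayed over it against Control in anti_PD1 (1.39 and 2.60) and anti_B7S1 (2.13 and 3.09). Of the myeloid markers, Cd68 (246.7 FPKM) and Cd74 (246.4 FPKM) made up nearly all of the Control sum of 502 FPKM, while Lyz2, Csf1r and Cd14 were listed at 0 there. The other 3 libraries summed to 135 to 209 FPKM, with Lyz2 at 66.7 FPKM and Cd14 at 36.4 FPKM in combo. Of the NK cell markers, Klrb1c, Klrb1b and Eomes were at 19.25, 29.8 and 13.3 FPKM in anti_PD1. In Control, anti_B7S1 and combo these were at 0 to 1.07 FPKM. Klre1 was highest in combo, at 444 FPKM, against 285 FPKM in anti_PD1. The part of myeloid and NK cell markers in the receptor values was not tested.

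**Figure D5:**
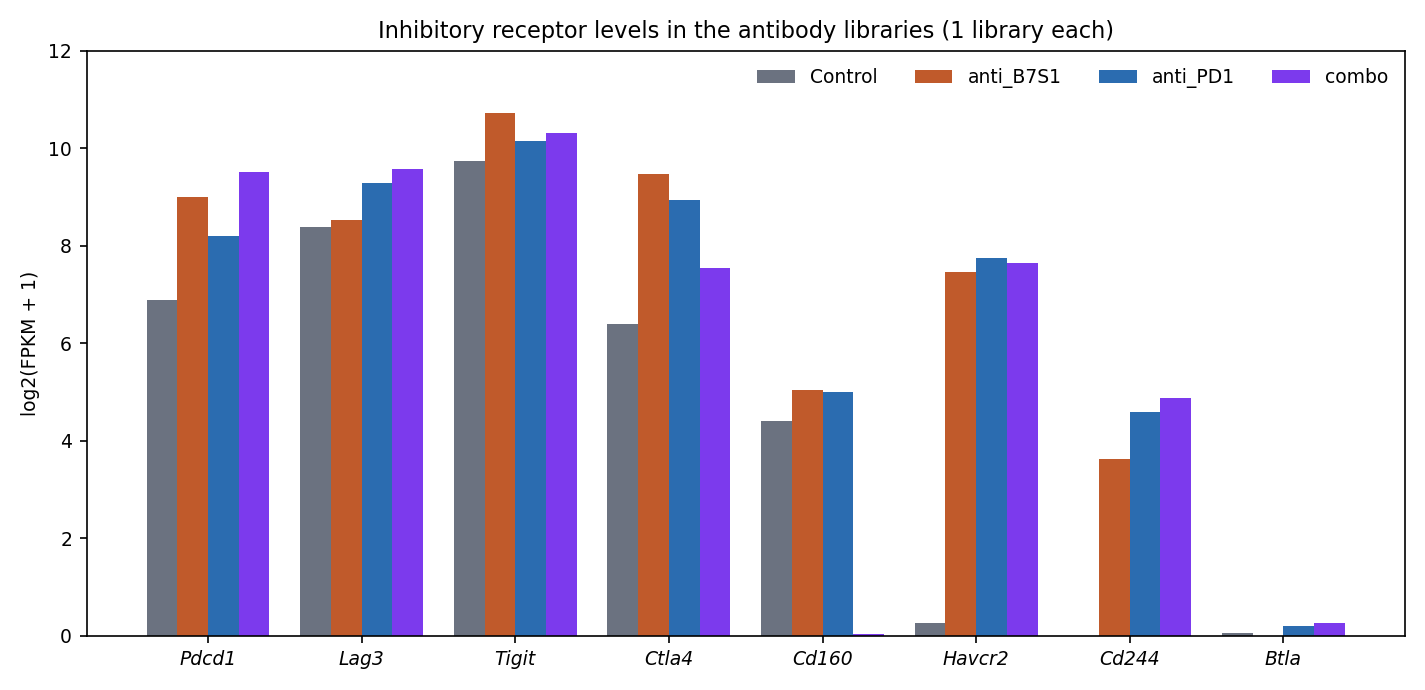
Levels of the 8 receptor genes as log2(FPKM + 1) in the 4 antibody libraries, 1 bar a library. Tigit is the highest bar in each library, Havcr2 and Cd244 are at or near 0 in Control, Cd160 is near 0 in combo, and Ctla4 is lowest in Control and second lowest in combo.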

How the data were processed

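RNA of mouse tumour CD8+ T cells was sequenced after SMARTer ultra low input amplification. The authors deposited RPKM for the bulk pair and FPKM for the other libraries, per the file headers. HISAT2, Bowtie2 and RSEM are named without versions, with the build mm10, per the submitters' processing notes. Counts were not used here, so no count model was run. Groups were read from titles, because strain and genotype fields of some sorted libraries count upward.

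Repeated symbols were dropped, and each fit used genes listed in all its libraries with a mean of at least 1 FPKM. limma 3.58.1 in R 4.3.3 was fitted to log2(FPKM + 1), adjusted by the Benjamini-Hochberg method, and genes under 0.05 were called. This scale understates changes of low genes. A fit that leaves a group with 1 library assumes that it varies like the others. The fits were tested on simulated data, whose outcome is not given here and backs no call. Over 10411 genes, the change from wild type 1 to wild type 2 in one population tracked that in another with r of 0.193, 0.269 and 0.401. Wild-type libraries numbered 1 and 2 are in different sets of files. A pairing by replicate number therefore cannot be told apart from a difference between those sets.

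The receptors and lists were chosen with earlier results of these data known. Listed genes were named by a rule: those past the threshold and up to 3 with the largest difference of 1 sign in every set, or up to 2 in unreplicated pairs. Cd48, Tcf7 and Ccl3 levels, and which of the listed genes to print, were chosen after values were seen. Alternatives were other blocks, pseudocount, filter and scaling, each library left out and, chosen after seeing the data, centring by transcript length and a minimum of 0.5 FPKM in both libraries of unreplicated pairs.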

Additional observations from a re-analysis of the deposited data

Results flagged for a closer look

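Ctla4 differed in opposite directions between pairs of single libraries that part by the same antibody. With the B7S1 antibody it was higher by 3.07 on the log2(FPKM + 1) scale against Control but differed by −1.39 where anti_PD1 was present (combo against anti_PD1). With the PD-1 antibody it was higher by 2.53 against Control and differed by −1.94 where anti_B7S1 was present (combo against anti_B7S1). Each value comes from 1 pair of libraries, and all 4 rest on the same 4 libraries. The opposite directions for either antibody are thus a single contrast, and the differences between the effects were not tested. Of the 8 receptors only Ctla4 was flagged, and the share of all genes with such opposite directions was not counted.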

How the results depend on the processing

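Between TIM-3_SP and DN, 6 genes passed in limma. That count became 1 with no replicate block, 2 with the replicate block over wild-type libraries, 0 over them with no replicate block, 0 over wild type 2 and KO-labelled libraries, 1 with pseudocount 0.1, 0 with no filter and 12 with a common median. For B7S1R_SP against TIM-3_SP the 42 became 12, 7, 0, 92, 2, 7 and 120 in the same order. For B7S1R_SP against DN the 0 became 3 over wild type 2 and KO-labelled libraries and 1 with pseudocount 0.1. Scaling to the CD3 genes gave 13 calls for TIM-3_SP against DN, where it put the median gene at −0.57. For B7S1R_SP against DN it gave 15, with the median gene at 1.01. The 4 genes called for genotype became 0 over all 9 libraries, 1 with no replicate block for the population, 0 with pseudocount 0.1, 0 with no filter and 7 with a common median. Leaving out single libraries gave 0 to 3, 1 to 35, 0 to 1 and 0 to 18 calls. The causes were not tested.

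Receptor differences changed sign as follows. Between TIM-3_SP and DN, Pdcd1 turned to −0.0906 and Cd160 to 0.44 over wild type 2 and KO-labelled libraries. There Ctla4 turned to −0.0506 over wild-type libraries, with and without the replicate block. In the same comparison Cd160 turned to 0.0374 with a common median and 0.03 with centring by transcript length. With CD3 scaling, Pdcd1 and Cd244 turned from −0.85 and −0.76 to 0.15 and 0.24 between B7S1R_SP and DN, Pdcd1 and Cd160 from −1.39 and −1.36 to 0.0444 and 0.065 between B7S1R_SP and TIM-3_SP, and Cd244 and Cd160 to 0.21 and 0.37 for genotype. Btla turned to −0.17 for genotype over all 9 libraries. With single libraries left out, ranges crossed 0 for Cd160 (−0.81 to 0.61), Ctla4 (−0.075 to 0.99), Lag3 (−0.29 to 1.66) and Pdcd1 (−0.32 to 1.18) between TIM-3_SP and DN, and for Btla (−0.68 to 1.23) for genotype. The replicate block changed the call of no receptor but Cd244. The calls of Tcf7 and Id2 were lost without it too (adjusted p = 0.0750 and 0.0625 in limma). The median r of 21 pairs was 0.444 without the 2 farthest libraries, 0.213 with CD3 scaling and 0.577 to 0.801 with 1 library left out. With 1 RPKM as the minimum, 2450 bulk genes were past 2-fold, against 1389. With 0.5 FPKM or more asked of both libraries, genes past 2-fold went from 5289 to 2437 (anti_PD1), 4736 to 2088 (anti_B7S1) and 4917 to 2109 (combo) against Control, and for combo from 4501 to 2419 against anti_PD1 and from 4834 to 2355 against anti_B7S1, since genes near 0 in 1 library drop out.

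With 3 libraries a population and unknown read totals, a difference that missed the threshold is not shown to be absent.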
